A study of Mus musculus with 6 samples.

Results

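This is an account of 9 genes of blood vessel growth in the embryonic mouse lens: the ligand genes Angpt1, Angpt2 and Vegfa, the receptor genes Tek, Tie1, Kdr and Flt1, and the endothelial junction genes Pecam1 and Cdh5. The rule took the rows of the deposited count table that carry these names, and all 9 were found among its 13024 genes. Angpt1 is in the list because the study names it among the genes that differ between these same pools, and the other 8 were set beside it as its partners with the results known. The genes were thus selected on the same read counts, in the same contrast, as are described here, and the difference between the groups is given for all 9 without a p-value. Their 95% intervals give the precision of the fitted difference and are not read as tests.

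The lens itself holds no vessels, but in the embryo it is wrapped by a capillary net, the tunica vasculosa lentis, which is fed by the hyaloid artery and later regresses. VEGF-A from the lens and the neural retina acts on endothelial VEGFR2, the product of Kdr, while VEGFR1, the product of Flt1, largely serves as a trap for the ligand. Angiopoietin-1 activates the endothelial receptor TIE2, encoded by Tek, and steadies vessels, whereas angiopoietin-2 binds the same receptor and often opposes it, which loosens vessels for sprouting or regression.

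The libraries were polyA RNA-Seq libraries made from E14.5 lenses in 6 pools, each of 10 lenses from 5 embryos, on a mixed C57BL/6 and FVB background. The 3 pools labelled CKO were Gata3 f/f, Pax6-Cre/+. In these a Pax6 enhancer and the P0 promoter drive Cre in the lens and cornea precursors of the head ectoderm, so exon 4 of Gata3 is deleted there. The study also describes Cre in scattered cells of the retinal neuroectoderm. Deletion in vessel cells was not tested. The 3 control pools are called wild type in the labels, and the study's text gives them both as Gata3 f/wt and as Gata3 f/f, without Cre. Only the pools labelled CKO carried Cre, so an effect of Cre and one of Gata3 loss cannot be told apart.

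Library totals were 15157230 to 18811104 counts, and values below are CPM, counts scaled to a common library size with edgeR's TMM normalization. The Gata3 count, which covers the whole gene and not exon 4 alone, was higher in the pools labelled CKO, at 910, 1064 and 894 against 202, 386 and 156 in control, so all directions are those of the pools as labelled. Exon 4 itself was not analysed here. Bfsp2, which encodes a filament protein of lens fibres, measured 531, 963 and 364 CPM in control and 235, 205 and 192.5 CPM in CKO. Of the exon bases of Gata3, 155 are shared with an antisense gene, Gm13256. Of lens markers, 12 fibre genes summed to 20500 to 69480 CPM, with control 2 highest. Markers of other tissues were detected in every pool. The retina list summed to 1686 CPM in control 2 and to 3676 CPM in control 3, its lowest and highest pools, and the mesenchyme list summed to 2394 CPM in control 1 and 4206 CPM in CKO 2 against 319 to 685 CPM in the other 4 pools. Control 1, CKO 2 and control 2 thus stood apart from the rest.

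Over the whole table, edgeR's quasi-likelihood test with Benjamini-Hochberg adjustment called 0 of 12879 genes at an adjusted p-value of 0.05 (0%), and 0 of the 9 genes. An unadjusted p-value below 0.05 was found for 3 of the 9, against 3.55% of all genes tested: 1 with a higher value in CKO (1.3% of all genes) and 2 with a lower value (2.24%). Groups did not overlap in 2 of the 9, against 8.36% of all genes, 1 of them higher in CKO (3.67%) and 1 lower (4.69%). The fitted value was higher in CKO for 2 of the 9 (50.6% of all genes) and lower for 7 (49.4%). DESeq2's Wald test called 1 of the 9, Angpt1, against 0.661% of all genes. Since these genes were set apart with this contrast known, nothing is read from these counts.

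Angpt1 was higher in every pool labelled CKO than in any control pool. Its counts were 180, 132 and 84 in control 1, 2 and 3, and 371, 511 and 316 in CKO 1, 2 and 3. These correspond to 11.4, 9.30 and 4.69 CPM in control and 24.1, 26.0 and 16.4 CPM in CKO. The lowest CKO pool lay above the highest control pool, and control 3 was the lowest of all. The means were 8.47 ± 3.43 CPM (SD, n = 3) in control and 22.2 ± 5.05 CPM (SD, n = 3) in CKO, a 2.62-fold difference. The fitted log2 ratio of CKO to control, called the log2 ratio from here on, was 1.39 (standard error, SE, 0.34, 95% interval 0.56 to 2.22). Without control 3 it was 1.10, and without control 1 and CKO 2 together, an option chosen after seeing the data, it was 1.55. The gene lies on the reverse strand of chromosome 15 (42424723–42676977, GRCm38), and 737 of its exon bases are shared with an antisense gene on the other strand, Gm17473. The strand option of the counting is not given in the sources used here, so fragments of that antisense gene could be part of these values.

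Angpt2, the gene for the ligand that opposes angiopoietin-1, went the other way. It had 89, 108 and 96 counts in control 1, 2 and 3, or 5.64, 7.61 and 5.36 CPM. In the pools labelled CKO it had 45, 78 and 73 counts, or 2.92, 3.97 and 3.80 CPM. Every CKO pool was below every control pool, and its count was the lowest of the 9 genes in 5 of 6 pools. The mean was 6.20 ± 1.23 CPM (SD, n = 3) in control and 3.56 ± 0.564 CPM (SD, n = 3) in CKO, a log2 ratio of -0.79 (SE 0.24, 95% interval -1.36 to -0.23). Angpt2 lies on the reverse strand of chromosome 8 (18690263–18741562) inside Mcph1, which runs on the opposite strand and shares 0 of its exon bases.

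The balance of the 2 ligands within a pool follows from these values, and since the groups of both genes are apart in opposite directions, a difference in their ratio is fixed and adds no support. The ratio of Angpt1 to Angpt2, taken in CPM within each pool and chosen after the values were seen, was 2.02, 1.22 and 0.875 in control 1, 2 and 3. In CKO 1, 2 and 3 it was 8.24, 6.55 and 4.33. The group means were 1.37 ± 0.589 (SD, n = 3) and 6.38 ± 1.96 (SD, n = 3), and the lowest CKO ratio was above the highest control ratio. Over the 6 pools the log2 CPM of Angpt1 had a Pearson r of 0.397 with the mean of the mesenchyme list and 0.397 with that of the pigment cell list. With the lens fibre list r was -0.433, and with the other lists compared it lay between -0.219 and -0.000855. The part of RNA from any of these tissues in the Angpt1 level was not tested.

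**Figure D1:**
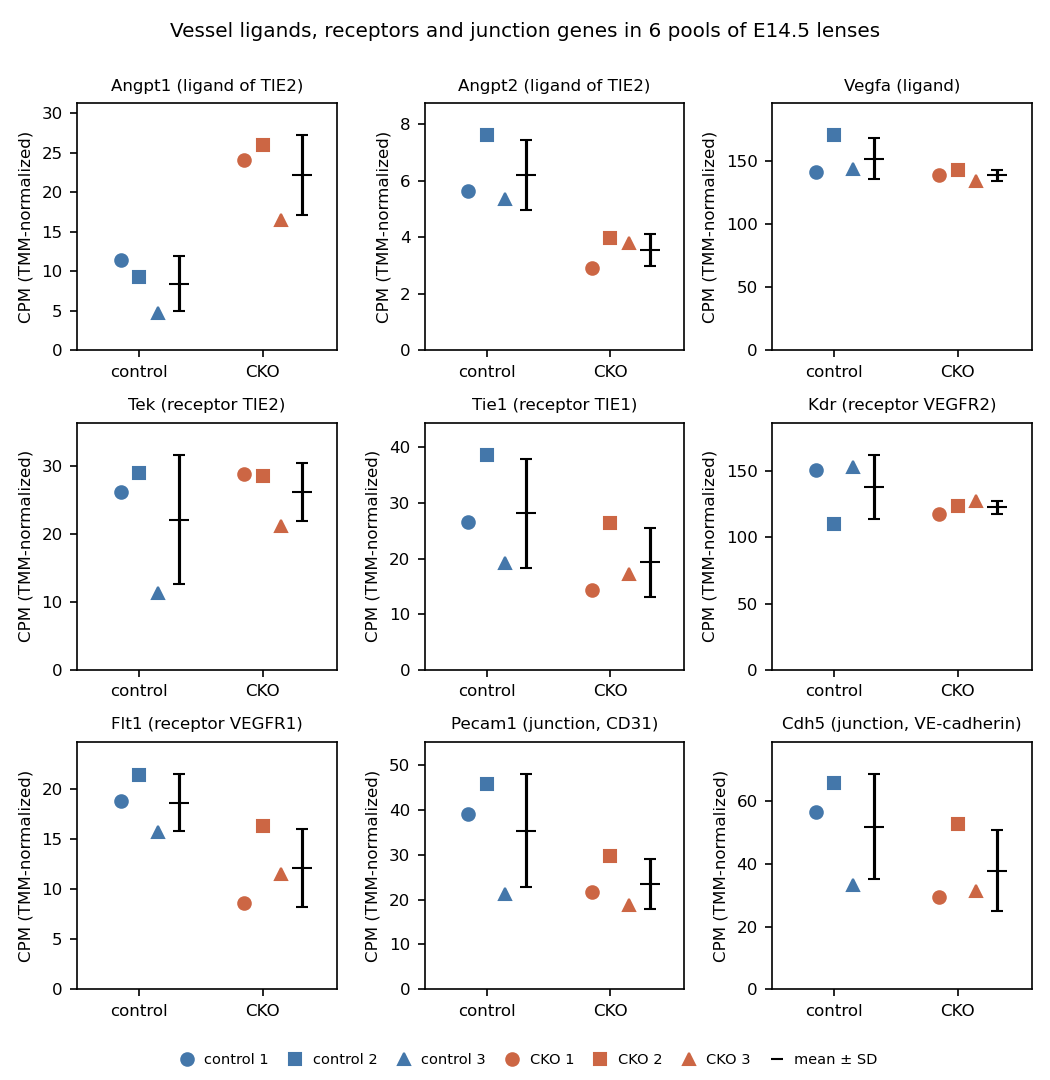
Each panel plots the TMM-normalized CPM of 1 gene in the 3 control and 3 CKO pools (points), with the mean and SD of each group in black and the axis from 0. Angpt1 (4.69 to 11.4 against 16.4 to 26.0 CPM) and Angpt2 (5.36 to 7.61 against 2.92 to 3.97 CPM) are the genes whose groups do not overlap, and Vegfa and Kdr are the flattest.

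Vegfa, the main VEGF ligand, lay within a narrow range in all pools and had the highest mean CPM of the 9 genes in each group. In control 1 and control 3 the CPM of Kdr was higher. Vegfa measured 141, 170 and 144 CPM in control 1, 2 and 3, and 139, 142 and 134 CPM in CKO 1, 2 and 3. The groups overlapped, and the highest pool was 1.27 times the lowest. The means were 152 ± 15.9 CPM (SD, n = 3) and 138 ± 4.23 CPM (SD, n = 3), with a log2 ratio of -0.13 (SE 0.0893). The 95% interval was -0.35 to 0.08. Control 2, the pool with the most fibre RNA, was highest, and without it the log2 ratio was -0.0321.

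Among the other VEGF family ligands, Vegfb and Pgf, whose products bind VEGFR1, had higher values in every CKO pool than in any control pool. These were 2 of the 6 further VEGF genes tested, against 3.67% of all genes higher in CKO without overlap. The margins were narrow, with 33.9 against 34.2 CPM for Vegfb and 7.26 against 7.39 CPM for Pgf. The list was chosen with earlier results known, and nothing is read from this count. Vegfb measured 29.2, 32.3 and 33.9 CPM in control and 34.2, 35.7 and 40.3 CPM in CKO, a log2 ratio of 0.21 (SE 0.10). Pgf, for placental growth factor, measured 6.15, 7.26 and 4.69 CPM in control and 8.56, 8.65 and 7.39 CPM in CKO, a log2 ratio of 0.44 (SE 0.21). Neither reached 0.05 before adjustment in edgeR's quasi-likelihood test. Vegfc, a ligand for the lymphatic receptor VEGFR3, overlapped between groups at 3.83 to 5.58 CPM over all pools.

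Tek, the gene for the receptor of both angiopoietins, measured 26.1, 29.0 and 11.2 CPM in control 1, 2 and 3. In CKO 1, 2 and 3 it measured 28.7, 28.5 and 21.2 CPM. Apart from control 3, which was low, the pools lay close together. The means were 22.1 ± 9.52 CPM (SD, n = 3) and 26.1 ± 4.29 CPM (SD, n = 3), a log2 ratio of 0.24 (SE 0.34, 95% interval -0.58 to 1.07). Its direction rested on control 3: without that pool it was -0.0761.

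Tie1, the gene for the orphan partner receptor of TIE2, was lower on average in the pools labelled CKO, at 14.4, 26.3 and 17.2 CPM against 26.6, 38.7 and 19.2 CPM in control. The groups overlapped, since CKO 2 was above control 3. The log2 ratio was -0.54 (SE 0.32, 95% interval -1.30 to 0.22).

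Flt1, the VEGFR1 gene, measured 18.9, 21.4 and 15.7 CPM in control and 8.62, 16.4 and 11.5 CPM in CKO. Here CKO 2 lay above control 3 by less than 1 CPM, and the other pools were separated. The log2 ratio was -0.61 (SE 0.25, 95% interval -1.21 to -0.02).

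Pecam1, which encodes the junction protein CD31, measured 39.0, 45.8 and 21.3 CPM in control and 21.7, 29.7 and 18.9 CPM in CKO, a log2 ratio of -0.59 (SE 0.31). Cdh5, the VE-cadherin gene and a defining marker of endothelium, measured 56.5, 65.8 and 33.2 CPM in control and 29.4, 52.7 and 31.4 CPM in CKO, a log2 ratio of -0.45 (SE 0.32). Control 3 was low for both genes and CKO 2 was the highest CKO pool for both, so the groups overlapped.

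The size of the difference in these vessel genes rested on single pools. Without control 2 the log2 ratio was -0.23 for Tie1, -0.35 for Pecam1 and -0.23 for Cdh5. Without CKO 2 it was -0.83 for Tie1, -0.89 for Flt1, -0.80 for Pecam1 and -0.77 for Cdh5. With both mesenchyme-rich pools, control 1 and CKO 2, left out, it was -0.86 for Tie1, -0.87 for Flt1, -0.72 for Pecam1 and -0.69 for Cdh5. All of these values stayed below 0.

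Kdr, the VEGFR2 gene, did not share this pattern. It measured 151, 110 and 154 CPM in control and 117, 124 and 127 CPM in CKO. Control 2, where Tie1, Flt1, Pecam1 and Cdh5 were all highest, was the lowest pool for Kdr. The means were 138 ± 24.4 CPM (SD, n = 3) and 123 ± 4.98 CPM (SD, n = 3), with a log2 ratio of -0.17 (SE 0.13, 95% interval -0.49 to 0.15). Without control 1 it was -0.0851 and without control 2 it was -0.30. Neural progenitors of the retina are known to express Kdr besides endothelium. Over the 6 pools, which share dissection and depth with every gene compared, the log2 CPM of Kdr had a Pearson r of 0.661 with the mean of the retina list and -0.235 with that of the endothelial list. For Cdh5 these values were -0.803 and 0.989. The part of retinal RNA in the Kdr level was not tested.

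In the GRCm38 assembly Tek lies on the forward strand of chromosome 4 (94739289–94874976), and Tie1 on the reverse strand of the same chromosome (118471191–118490061). Kdr (75932827–75978458) and Flt1 (147561604–147726011) lie on the reverse strand of chromosome 5. Vegfa lies on the reverse strand of chromosome 17 (46016993–46032369), Pecam1 on that of chromosome 11 (106654217–106750628), and Cdh5 on the forward strand of chromosome 8 (104101625–104144511). Compared per length of exon, the order of the 9 genes was led by Vegfa in both groups. In control, Vegfa reached 43.0 ± 4.51 CPM per kb of exons (SD, n = 3), Kdr 23.3 ± 4.12 and Cdh5 12.98 ± 4.20, and these 3 neighbours did not overlap. Pecam1 followed at 10.3, Tie1 at 6.89 and Tek at 4.70 CPM per kb, each overlapping its neighbour in the order. At the foot stood Angpt1 with 1.99, Angpt2 with 1.74 and Flt1 with 1.70 CPM per kb, whose pool values overlapped. In the pools labelled CKO, Angpt1 stood at 5.20 ± 1.19 CPM per kb (SD, n = 3), between Tek at 5.56 and Tie1 at 4.72 and overlapping both, while Flt1 and Angpt2 stayed at the foot with 1.11 and 1.0. The lowest CKO pool of Angpt1, at 3.86 CPM per kb, was above the highest of Flt1, at 1.49. Lengths were those of transcripts matched to RefSeq, and for Flt1, with 10961 exon bases, a shorter isoform in use would raise its value.

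**Figure D2:**
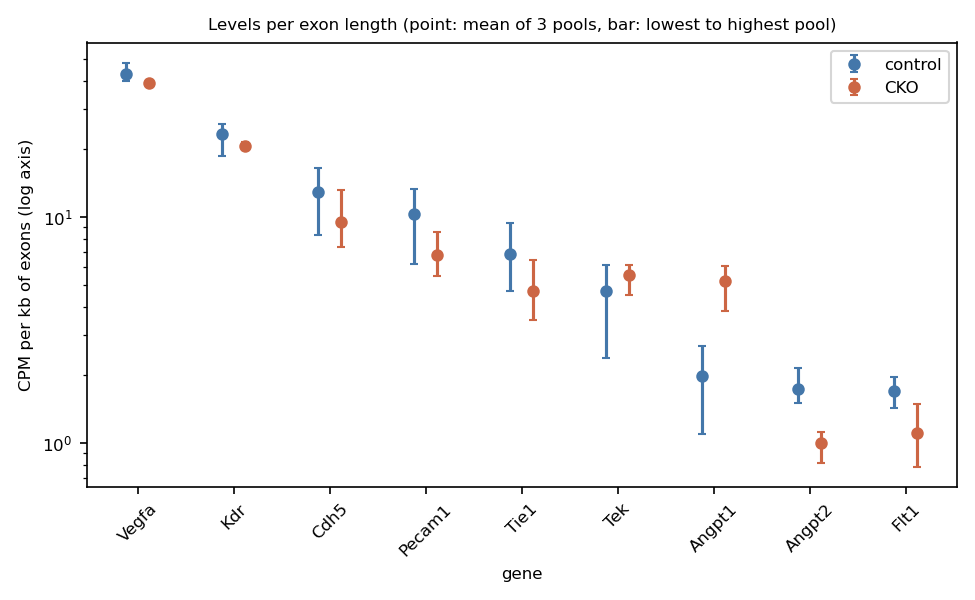
Points give the mean CPM per kb of exons of 3 pools for each gene and group on a log axis, and bars run from the lowest to the highest pool. Angpt1 sits near 2 CPM per kb beside Angpt2 and Flt1 in control and at 5.20 CPM per kb beside Tek in CKO.

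Tie1, Flt1, Pecam1 and Cdh5 varied across the pools with other endothelial genes, Tek did so less, and Kdr did not. Over the 6 pools the Pearson r of log2 CPM with the mean of an endothelial list was 0.937 for Tie1, 0.815 for Flt1, 0.976 for Pecam1 and 0.989 for Cdh5. It was 0.551 for Tek, -0.000855 for Angpt1 and 0.67 for Angpt2. This likeness was not particular to endothelium. With the mean of a macrophage list, r was 0.949 for Tie1, 0.847 for Flt1, 0.982 for Pecam1 and 0.949 for Cdh5. With a mural cell list it was 0.949, 0.849, 0.886 and 0.969 for the same genes. The endothelial list holds 20 further genes, none of them among the 9. It summed to 351, 431 and 226 CPM in control 1, 2 and 3 and to 219.5, 344.5 and 198 CPM in CKO 1, 2 and 3. None of its genes had a count of 0 in any pool. Of the 20 genes, 19 had lower and 1 (Ramp2) had higher mean values in the pools labelled CKO, against 49.4% of all genes lower. The list had a median log2 ratio of -0.41, against 0.00187 for all genes tested. None of the 20 passed edgeR's or DESeq2's test across all genes, and all had overlapping groups. Before adjustment 1 reached 0.05 in edgeR (Esam), against 3.55% of all genes. In DESeq2 2 did (Esam and Mmrn2), against 507 of 12879 genes. In bulk tissue, fewer endothelial cells in the embryo, fewer kept with the lens at dissection and less RNA per endothelial cell cannot be told apart. The median was -0.23 without control 2, -0.65 without control 3 and -0.74 without CKO 2.

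Esam, an endothelial adhesion gene, had the lowest log2 ratio of the list, -0.69 (SE 0.24), with 16.7 ± 4.06 CPM (SD, n = 3) in control and 10.3 ± 2.29 CPM (SD, n = 3) in CKO. Mmrn2, an endothelial matrix gene, and Robo4, an endothelial guidance receptor gene, had log2 ratios of -0.63 and -0.62. Erg, an ETS transcription factor gene, was high in the mesenchyme-rich pools, with 16.1 CPM in control 1 and 16.6 CPM in CKO 2 against 3.52 to 8.17 CPM in the others.

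Set against VE-cadherin within each pool, Tie1 and Pecam1 stayed within narrow ranges and Tek did not. These ratios were chosen after the values were seen. Tie1 to Cdh5 ran from 0.471 to 0.588 and Pecam1 to Cdh5 from 0.564 to 0.737 over all 6 pools, with the groups overlapping, as they did for Flt1 to Cdh5 at 0.294 to 0.472. The ratio of Tek to Cdh5 was 0.462, 0.440 and 0.338 in control 1, 2 and 3, and 0.978, 0.541 and 0.675 in CKO 1, 2 and 3. All 3 CKO ratios were above all 3 control ratios, with means of 0.731 ± 0.224 (SD, n = 3) and 0.413 ± 0.0662 (SD, n = 3). Against Tie1, the other TIE receptor gene, the Tek ratio ran from 0.584 to 0.981 in control and from 1.08 to 2.0 in CKO. Since Tie1 to Cdh5 stayed within a narrow range, this follows largely from the ratio of Tek to Cdh5 and adds no support. The groups of Tek itself overlapped. With the mean log2 CPM of the endothelial list as a covariate, the fitted log2 ratio of Tek was 0.72 and that of Angpt1 was 1.79, while Tie1, Pecam1 and Cdh5 came to -0.17, -0.17 and -0.0486. Angpt2 remained lower at -0.65 and Flt1 at -0.40 in that fit. The endothelial list was itself lower in CKO and ran with Tie1, Pecam1 and Cdh5, so their values near 0 were fixed in advance. The part of endothelial RNA in the values of Tek and Angpt1 was not tested, and nothing is read from this fit.

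**Figure D3:**
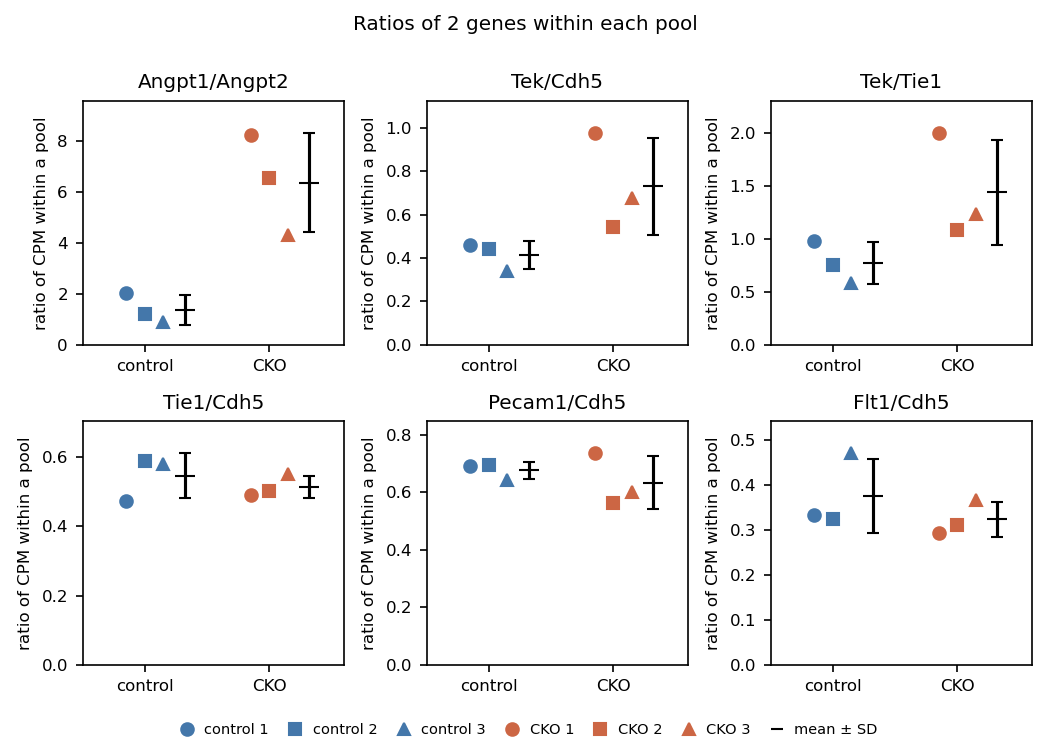
Each panel plots the ratio of the CPM of 2 genes within each pool, with the mean and SD of each group in black and the axis from 0. Angpt1/Angpt2, Tek/Cdh5 and Tek/Tie1 are apart between control and CKO, whereas Tie1/Cdh5, Pecam1/Cdh5 and Flt1/Cdh5 overlap.

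Sequences before the start sites of receptor genes and of Vegfa are shown because the receptors split into those that varied with the endothelial list (Tie1, Flt1) and those that did so less or not at all (Tek, Kdr), and because GATA3 is a factor that binds GATA sites. Promoter windows of the RefSeq annotation on GRCm38.p6 were matched for 5 of the 9 genes: Tek, Tie1, Kdr, Flt1 and Vegfa. The window of Tie1 is not printed, because its RefSeq start lies inside the GENCODE gene and 212 of the 250 bases are then within the gene. For Kdr 3 bases are, and for Tek, Flt1 and the Vegfa window shown 0. A second window of Vegfa (chr17:46025164-46025413) has all 250 bases within the gene and is not printed. Each run gives the 250 bases before the RefSeq start, 5′ to 3′ on the strand of the gene. Capitals mark the hexamers searched, on either strand. The GATA hexamers searched began with AGATA, followed by A or by G, or with TGATA, followed by either of these, and the ETS-type hexamer was AGGAAG. None of the matches overlapped.
Tek, chr4:94739039-94739288, forward strand: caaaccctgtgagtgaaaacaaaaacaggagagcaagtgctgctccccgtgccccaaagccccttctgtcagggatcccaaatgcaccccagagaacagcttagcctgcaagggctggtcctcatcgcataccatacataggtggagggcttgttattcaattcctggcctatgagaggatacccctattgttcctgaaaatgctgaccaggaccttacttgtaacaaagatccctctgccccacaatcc
Kdr, chr5:75978456-75978705, reverse strand: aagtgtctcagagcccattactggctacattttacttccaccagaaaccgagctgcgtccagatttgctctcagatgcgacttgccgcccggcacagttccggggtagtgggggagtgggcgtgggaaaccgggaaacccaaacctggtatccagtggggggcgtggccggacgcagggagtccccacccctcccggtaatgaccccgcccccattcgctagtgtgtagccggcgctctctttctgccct
Flt1, chr5:147726012-147726261, reverse strand: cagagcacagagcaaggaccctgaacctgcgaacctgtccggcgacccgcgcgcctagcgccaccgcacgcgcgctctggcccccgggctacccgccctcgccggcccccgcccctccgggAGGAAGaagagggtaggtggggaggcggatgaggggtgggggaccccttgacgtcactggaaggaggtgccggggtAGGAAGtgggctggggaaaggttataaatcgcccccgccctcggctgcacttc
Vegfa, chr17:46032378-46032627, reverse strand: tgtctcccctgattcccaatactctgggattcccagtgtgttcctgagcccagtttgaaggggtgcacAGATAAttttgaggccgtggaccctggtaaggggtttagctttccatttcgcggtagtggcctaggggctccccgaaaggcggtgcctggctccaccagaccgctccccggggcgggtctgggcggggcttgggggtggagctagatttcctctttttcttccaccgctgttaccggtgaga

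A GATA hexamer was found for 1 of the 5 genes, AGATAA at -182 of Vegfa, against 26.5% of 32851 promoter windows of the same length. The second Vegfa window held no match. Tek held AGATAA as well, but at position 37 after its start and so beyond the run shown. AGGAAG was found for 2 of the 5 genes, at -219 of Tie1 on the opposite strand, and at -129 and -53 of Flt1, against 29.5% of all windows. Tie1 held it once more at position 34 after its RefSeq start. Tek and Kdr held neither AGGAAG nor a GATA hexamer in the 250 bases. Other ETS-type hexamers were not searched. The run of Kdr holds acttcc and ttccgg, and that of Tek holds ttcctg, which read GGAA on the opposite strand. The run of Kdr also holds gggaaa, with GGAA on the strand shown. The windows are thus not shown to lack ETS-type sites. These matches describe the letters of the windows, and binding was not measured in these data.

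Macrophages, mural cells and red blood cells accompany these vessels, and their markers varied between the same pools. The macrophage list summed to 140, 181.5 and 94.1 CPM in control 1, 2 and 3 and to 85.9, 112 and 87.3 CPM in CKO 1, 2 and 3. All 11 genes tested were lower on average in CKO, against 49.4% of all genes. Their median log2 ratio was -0.47, and it was -0.23 without control 2 and -0.65 without CKO 2. Before adjustment 2 of the 11 were below 0.05 in edgeR, against 3.55% of all genes. In DESeq2 3 were, against 507 of 12879 genes. After adjustment 0 were called by either tool. Lyve1, a marker of perivascular macrophages and of lymphatic endothelium, was 13.2 ± 5.82 CPM (SD, n = 3) in control and 6.63 ± 0.753 CPM (SD, n = 3) in CKO. Its groups did not overlap, which held for 1 of the 11 genes, against 4.69% of all genes lower in CKO without overlap. Mural cell genes, which mark the pericytes and smooth muscle of vessel walls, had 9 of 11 lower, against 49.4% of all genes. Their median was -0.45, and it was -0.0978 without control 2 and -0.78 without CKO 2. Acta2, the smooth muscle actin gene, was among the other 2 and measured 17.5 ± 5.21 CPM (SD, n = 3) in control and 27.3 ± 7.68 CPM (SD, n = 3) in CKO. The red blood cell list, with 6 genes tested, summed to 1446 CPM in control 2 and to 343 to 603 CPM in the other pools, so its median of -0.61 turned to 0.0965 without control 2. The share of these cell types in the values of the 9 genes was not tested.

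**Figure D4:**
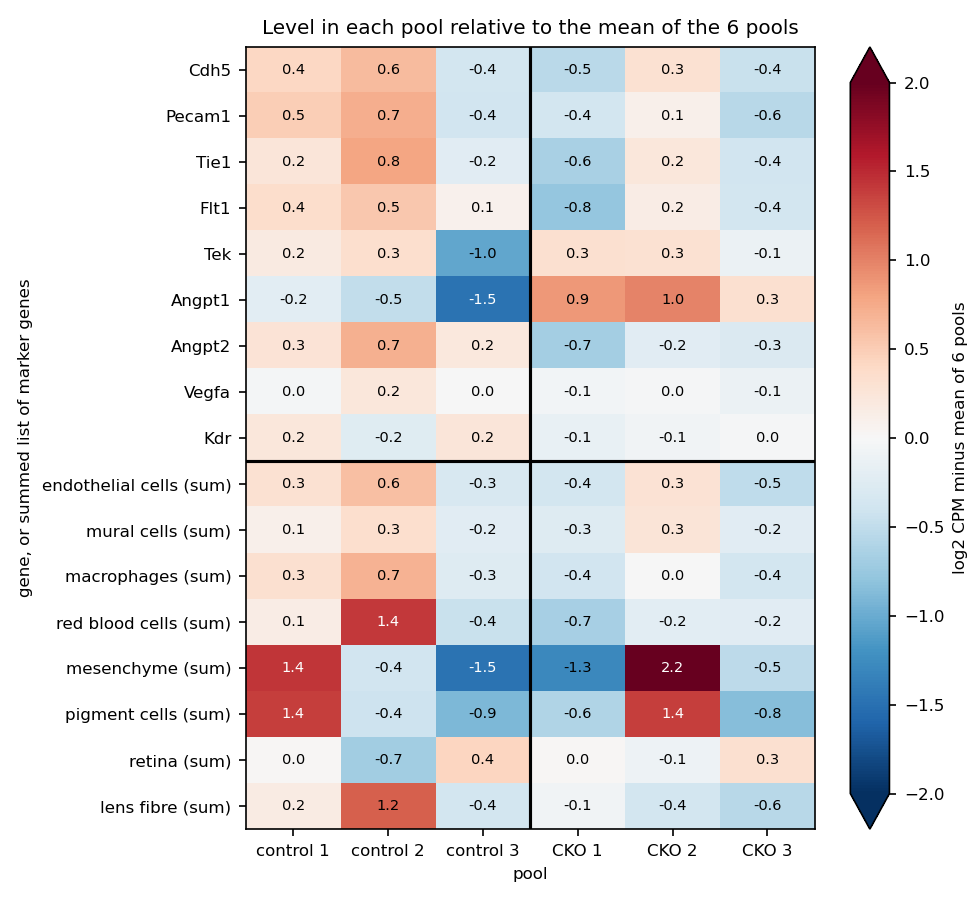
Colours and numbers give log2 CPM in each pool minus the mean of the 6 pools, for the 9 genes (top) and for summed lists of cell type markers (bottom). Cdh5, Pecam1, Tie1 and Flt1 share the pattern of the endothelial list, highest in control 2. The mural, macrophage, red blood cell and lens fibre lists are highest in control 2 as well. Angpt1 is above its mean in all 3 CKO pools and at -1.5 in control 3.

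The genes whose log2 CPM ran most like Cdh5 over the 6 pools, among genes with at least 5 CPM on average, were Thbs1 (Pearson r 0.996), Bcl6b (0.995), Ets1 (0.995), Stk16 (0.993) and Clec14a (0.993). Thbs1 encodes thrombospondin-1, a secreted inhibitor of vessel growth, Ets1 a transcription factor of endothelium, and Clec14a an endothelial lectin from the endothelial list. For Angpt1 they were Dzip1 (0.989), Rbm7 (0.988), Amigo3 (0.986), Caml (0.981) and Rian (0.974). Rian, a noncoding RNA of an imprinted region on chromosome 12, is another gene that the study names from these pools, so its likeness to Angpt1 includes the difference for which both were picked. Some of these genes varied little: Stk16 ran from 56.5 to 64.9 CPM, Rbm7 from 51.6 to 58.9 CPM and Caml from 26.1 to 31.3 CPM. All of these values rest on 6 pools and are the highest r picked from all genes compared. A link between the genes was not tested.

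Further along the TIE2 pathway, Ptprb encodes the phosphatase VE-PTP, which restrains TIE2, and Foxo1 encodes a transcription factor held in check by TIE2 signalling. Ptprb measured 14.2 ± 4.72 CPM (SD, n = 3) in control and 10.7 ± 3.66 CPM (SD, n = 3) in CKO. Foxo1 had a log2 ratio of -0.03 (95% interval -0.60 to 0.53). Angpt4 and Svep1, also on that list, were not analysed here.

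Of the other VEGF receptors and co-receptors, Flt4, which encodes VEGFR3, had a log2 ratio of -0.69 (SE 0.33) with overlapping groups. Nrp1 and Nrp2 encode neuropilins, which bind VEGF-A with VEGFR2. Nrp1 had a log2 ratio of -0.16 (SE 0.17), and Nrp2 followed the mesenchyme-rich pools, with 33.3 CPM in control 1 and 37.9 CPM in CKO 2 against 10.3 to 12.8 CPM elsewhere. Over the 6 further VEGF genes tested, 3 had higher and 3 lower means, and 0 had an unadjusted p-value under 0.05 in edgeR or in DESeq2.

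**Figure D5:**
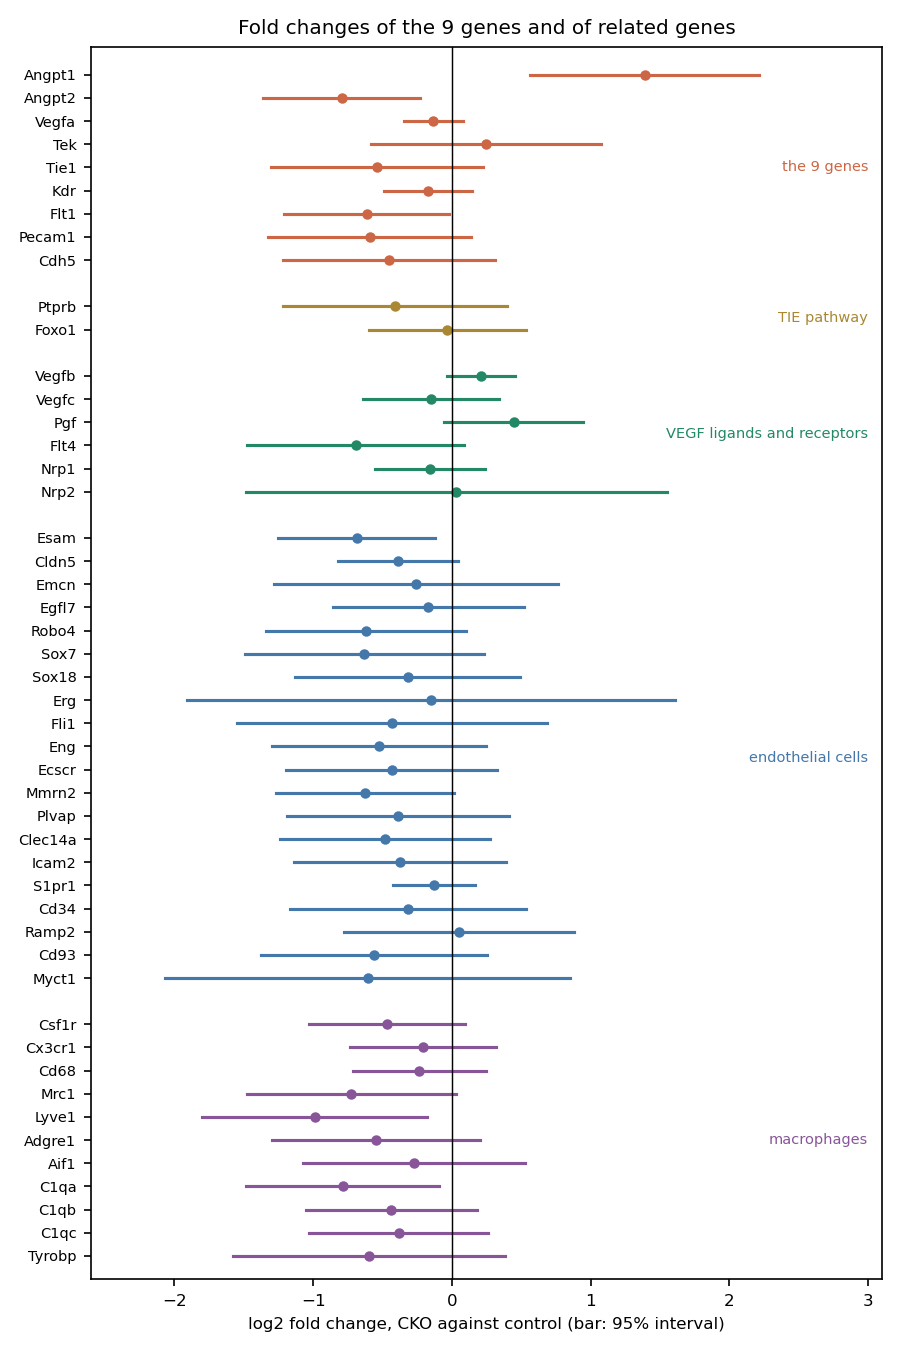
Points give the fitted log2 ratio of CKO against control and bars its 95% interval, for the 9 genes and for further genes of the TIE2 and VEGF pathways, endothelium and macrophages. Angpt1 is at 1.39 and Angpt2 at -0.79, values that chose these genes or were known when they were chosen. Below 0 are 19 of the 20 endothelial and 11 of the 11 macrophage values, against 49.4% of all genes.

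VEGF-A acts on vessels through Notch as well: it induces the ligand DLL4 in sprouting endothelial tips. Of 11 genes of endothelial Notch signalling and of arteries and veins, 4 had higher and 7 lower means, and the median log2 ratio was -0.0156. Notch4, an endothelial Notch receptor gene, was 18.9, 27.7 and 23.6 CPM in control and 15.9, 17.4 and 14.7 CPM in CKO. Its log2 ratio was -0.55 (SE 0.16, adjusted p = 0.979 in edgeR). It was the 1 gene of the 11 without overlap, against 8.36% of all genes, or 4.69% for those lower in CKO. Dll4 and Notch1, which the retina also expresses, had log2 ratios of -0.09 and -0.0156.

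Vegfa is a classical target of hypoxia-inducible factors, and its flat level was set beside theirs. Hif1a and Epas1 encode the oxygen-regulated subunits. Hif1a measured 383 ± 18.3 CPM (SD, n = 3) in control and 376 ± 23.6 CPM (SD, n = 3) in CKO, whereas Epas1, which is rich in endothelium, had a log2 ratio of -0.67 (SE 0.28). Of 13 genes of this list tested, edgeR called 0 after adjustment (0% of all genes). DESeq2 called 1, Ndrg1 (adjusted p = 0.00658 in DESeq2, 0.582 in edgeR), against 0.661% of all genes. Before adjustment 5 were below 0.05 with either tool, against 3.55% of all genes in edgeR and 507 of 12879 in DESeq2. The list was chosen with earlier results known, and nothing is read from these counts. Higher in CKO were Bnip3, a mitophagy receptor gene (log2 ratio 0.50, SE 0.12, adjusted p = 0.638 in edgeR), Pdk1, which limits entry of pyruvate into mitochondria (0.46, SE 0.14), and Slc2a1, the glucose transporter gene (0.30, SE 0.12). Lower were Epas1 and Ndrg1, at -0.78 (SE 0.16), the latter a gene the study also names from these pools. The sensitive targets Ankrd37 and Egln3 had log2 ratios of -0.03 and -0.05, and the median of the list was 0.0046.

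Genes for regression of the hyaloid vessels, in which macrophage WNT7B acts through FZD4 and LRP5 on endothelium, had a median log2 ratio of -0.04 over 9 genes, and 0 of them had an unadjusted p-value under 0.05 in edgeR or in DESeq2. Wnt7b measured 179 ± 101 CPM (SD, n = 3) in control and 171 ± 14.3 CPM (SD, n = 3) in CKO, with control 2 highest at 295 CPM. Fzd4, the endothelial receptor gene, measured 16.8 ± 4.56 CPM (SD, n = 3) and 13.7 ± 3.11 CPM (SD, n = 3). Of 9 secreted inhibitors of vessel growth, 6 had higher and 3 lower means. The median log2 ratio was 0.10, and -0.16 to 0.21 with each pool left out. Before adjustment 0 of the 9 were below 0.05 in edgeR and 1 was in DESeq2, Timp3, with 0 called after adjustment by either tool. Among the 6 higher, log2 ratios ran from 0.0579 for Sema3f to 0.53 for Thbs2. The 3 lower were Thbs1, Timp3 and Col18a1. Timp3, whose product also blocks VEGF-A binding to VEGFR2, measured 116.5 ± 58.7 CPM (SD, n = 3) in control and 64.6 ± 16.9 CPM (SD, n = 3) in CKO, with overlapping groups. Col18a1, which encodes the parent chain of endostatin, measured 230 ± 20.1 CPM (SD, n = 3) in control and 193 ± 28.7 CPM (SD, n = 3) in CKO, with overlapping groups.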

How the data were processed

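RNA-Seq of 6 pools of mouse lenses was analysed, 3 labelled CKO and 3 control. The authors aligned reads of strand-specific libraries to mm10 with TopHat2 2.0.13, counted fragments per RefSeq gene with HTSeq 0.6.1 and deposited the raw counts of genes with a mean FPKM over 1 in either group; the counting options are not given in the sources used here. Titles number the CKO pools 1 to 3 and are used here. No label says that same-numbered pools are related, nor more about replicates than separate pools.

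Library sizes were scaled by TMM, and 12879 genes that reached 10 counts in 3 or more libraries entered the robust quasi-likelihood fit (glmQLFit, glmQLFTest) of edgeR 4.0.16 under R 4.3.3, with Benjamini-Hochberg adjustment. DESeq2 1.42.0 and limma 3.58.1 (voom) served as alternatives, beside other normalizations, filters, covariates, a replicate block and each pool left out. Log2 CPM used a prior count of 1. The tests were tried on simulated counts with known changes. Pools of a group differed by more than counting noise, so none was a duplicate. With 3 pools a group, precision is set by the spread between pools. Exon lengths and positions came from GENCODE M21 (GRCm38, the assembly of mm10), and promoter sequences from RefSeq (GRCm38.p6). Summaries used pandas 2.3.3 and figures matplotlib 3.10.9 (Python 3.11.15).

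The 9 genes and the 15 gene lists (TIE pathway, VEGF, endothelium, Notch and vessel type, mural cells, hypoxia, vessel inhibitors, hyaloid regression, macrophages, red blood cells, mesenchyme, retina, pigment cells, lens fibre and epithelium) were chosen with earlier results of these data known. Genes named are the 9, those of the lists, Gata3, and the 5 genes most like Angpt1 and Cdh5 over the pools. Gm17473, Gm13256 and Mcph1 are outside the rule and are named for overlapping such a gene.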

Additional observations from a re-analysis of the deposited data

How the results depend on the processing

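Under 17 alternatives the log2 fold changes kept their sign for 8 of the 9 genes: Angpt1 was 1.10 to 1.79, Angpt2 -0.93 to -0.61, Flt1 -0.89 to -0.40, Tie1 -0.86 to -0.17, Pecam1 -0.86 to -0.17, Cdh5 -0.77 to -0.0486 and Kdr -0.30 to -0.0808. Tek was -0.0761 to 0.50 with each pool left out, lowest without control 3. Scaling by library size alone moved the median of all genes to 0.10, and gave -0.0219 for Vegfa, 0.12 for the hypoxia list and 0.0859 for the hyaloid list. The number of genes called was 85 with DESeq2, 1 with library size alone, 1 with the endothelial list as a covariate and 0 to 8 with each pool left out (8 without control 2). Of genes with an unadjusted p-value under 0.05, 289 were lower and 168 higher in CKO, against 191 and 428 with library size alone. With each pool left out, list medians were -0.0042 to 0.0621 (hypoxia), -0.13 to -0.0127 (hyaloid regression), -0.92 to 0.0965 (red blood cells), -1.12 to 2.02 (mesenchyme), -1.08 to 1.33 (pigment cells) and -0.59 to -0.0461 (lens epithelium, -0.35 with all pools), and the cause was not tested. The main medians were 0.61 for mesenchyme, 0.0567 for pigment cells, 0.13 for retina (-0.12 without control 2, 0.46 without control 3) and -0.88 for lens fibre (-0.33 without control 2).

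With the replicate number as a block, 0 genes were called (516 at an unadjusted p-value under 0.05, against 457 without it, in edgeR) and Angpt1 was 1.45, Angpt2 -0.79 and Tek 0.33. The numbers did not pair the pools: correlations of deviations were -0.487, 0.0899 and 0.442 for numbers 1, 2 and 3, and no pairing was used.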
